A study of Mus musculus with 6 samples.

Results

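The 33 genes described here carry out or control the synthesis of cholesterol and fatty acids under sterol regulatory element-binding proteins (SREBPs), and were chosen by symbol from the 29667 genes of the count table. They fall into 5 regulators, a sterol arm of 19 genes and a fatty acid arm of 9 genes, and all 33 passed the filter on low counts. Poly(A)-selected mRNA was sequenced from the livers of 3 mice with floxed Prox1 alleles and no Cre (Prox1f/f, called WT) and of 3 mice with the same floxed alleles and Cre under the albumin promoter (Alb-Cre; Prox1f/f, called Prox1-cKO). Both genotypes thus carried the floxed alleles, on a C57BL/6 background, and mice that carried Cre alone were not analysed here. The albumin promoter drives Cre mainly in hepatocytes, and Prox1 was not measured by cell type in these whole livers. Age, sex, any treatment and the hour and feeding state at sampling are not given for these mice in the sources used here. Replicates were biological according to the paper. The tests weigh the genotype difference against the spread among these 6 libraries.

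SREBPs are made as membrane proteins of the endoplasmic reticulum, where SCAP escorts them to the Golgi for cleavage when sterols are low and INSIG proteins hold them back when sterols are high. The released part enters the nucleus and binds sterol regulatory elements in the promoters of its target genes, usually beside sites of cofactors such as NF-Y, which binds CCAAT. In liver, the product of Srebf2 acts mainly on cholesterol synthesis, and that of Srebf1 mainly on fatty acid synthesis and in response to insulin and to the sterol receptor LXR. Mlxipl encodes ChREBP, the carbohydrate-responsive factor that acts beside SREBP on lipogenic genes.

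To show what the promoters of these genes have in common, windows of 300 bases (250 before and 50 after the start, RefSeq, build GRCm38.p6) were searched for 4 motifs on both strands, and 29 of the 33 members had such a window. CCAAT was found in 26 of the 29 members, against 41.1% of the 27025 genes with a window, non-coding genes included. It was present in 17 of the 19 members with a window that were called lower in Prox1-cKO and in 9 of the other 10. The site of the SP1 family, GGGCGG, was found in 24 of the 29 members, against 38.2% of genes, and the E-box CACGTG in 6, against 8.09%. A form of the sterol regulatory element, TCACNCCAC, was found in Hmgcs1 and Mlxipl, against 1.44% of all genes. These matches are a description of letters, and each gene may have sites outside the window. The windows shown are those nearest the annotated start of the gene, of an early step of the sterol arm (Hmgcs1), of 2 sterol genes that moved in opposite directions (Nsdhl and Hsd17b7), of the fatty acid synthase gene and of the 2 Insig genes. Capitals mark TCACNCCAC, CACGTG and CCAAT on either strand, and 2 of the 3 matches in Fasn overlap.
Hmgcs1 (chr13:119690101-119690400, plus strand): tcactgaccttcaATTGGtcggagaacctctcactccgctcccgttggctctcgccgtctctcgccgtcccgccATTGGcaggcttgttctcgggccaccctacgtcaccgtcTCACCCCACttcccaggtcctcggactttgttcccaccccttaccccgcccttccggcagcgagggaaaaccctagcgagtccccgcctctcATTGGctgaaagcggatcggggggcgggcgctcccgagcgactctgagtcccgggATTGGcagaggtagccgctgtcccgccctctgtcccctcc
Nsdhl (chrX:72918271-72918570, plus strand): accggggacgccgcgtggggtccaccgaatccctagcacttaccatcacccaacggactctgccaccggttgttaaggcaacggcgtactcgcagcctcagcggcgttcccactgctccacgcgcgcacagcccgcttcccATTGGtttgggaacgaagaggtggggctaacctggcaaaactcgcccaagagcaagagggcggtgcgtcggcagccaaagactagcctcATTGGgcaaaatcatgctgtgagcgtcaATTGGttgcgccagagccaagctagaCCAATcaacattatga
Hsd17b7 (chr1:169969156-169969455, minus strand): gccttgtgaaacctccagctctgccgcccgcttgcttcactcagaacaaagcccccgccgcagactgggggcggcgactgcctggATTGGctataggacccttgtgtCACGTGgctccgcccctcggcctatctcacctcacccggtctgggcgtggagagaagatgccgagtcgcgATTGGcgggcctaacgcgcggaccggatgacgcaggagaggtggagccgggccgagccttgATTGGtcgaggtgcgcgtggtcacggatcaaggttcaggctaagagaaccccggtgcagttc
Fasn (chr11:120824498-120824797, minus strand): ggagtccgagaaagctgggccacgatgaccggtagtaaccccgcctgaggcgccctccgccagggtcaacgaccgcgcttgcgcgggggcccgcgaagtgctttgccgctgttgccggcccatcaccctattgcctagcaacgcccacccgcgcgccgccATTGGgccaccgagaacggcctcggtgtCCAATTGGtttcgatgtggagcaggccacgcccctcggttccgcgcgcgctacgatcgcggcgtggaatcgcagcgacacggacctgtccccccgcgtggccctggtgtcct
Insig1 (chr5:28071162-28071461, plus strand): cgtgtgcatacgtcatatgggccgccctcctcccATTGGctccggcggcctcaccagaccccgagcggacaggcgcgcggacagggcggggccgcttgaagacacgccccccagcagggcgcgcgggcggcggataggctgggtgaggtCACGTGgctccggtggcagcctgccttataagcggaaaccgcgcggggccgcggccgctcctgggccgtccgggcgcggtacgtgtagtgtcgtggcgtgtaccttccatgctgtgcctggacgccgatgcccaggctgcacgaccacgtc
Insig2 (chr1:121332540-121332839, minus strand): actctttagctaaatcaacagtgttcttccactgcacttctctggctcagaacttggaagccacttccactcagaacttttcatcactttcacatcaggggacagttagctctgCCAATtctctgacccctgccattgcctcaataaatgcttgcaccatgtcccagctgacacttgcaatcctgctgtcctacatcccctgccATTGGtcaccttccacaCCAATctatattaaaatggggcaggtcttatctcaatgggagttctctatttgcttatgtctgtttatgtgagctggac
Hmgcs1 and Nsdhl held 4 CCAAT matches each, Hsd17b7, Fasn and Insig2 3 each and Insig1 a single match. Insig2 has 3 windows in the table, and the counts per gene do not separate its starts.

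Libraries held 18066205 to 20537091 reads in genes. Levels are given as CPM, the reads of a gene per 1000000 reads of its library after TMM scaling. TMM sets the libraries to a common level of most genes, with factors that ranged from 1.09 to 1.20 for WT and from 0.842 to 0.893 for Prox1-cKO. Scaling by library totals alone shifted all log2 fold changes by a median of −0.41, and changes are reported relative to TMM. Each gene was tested for a genotype difference with edgeR (quasi-likelihood), and was called at an adjusted p under 0.05 over the 14843 genes tested. Prox1 was 558, 729 and 837 CPM in WT and 212, 179 and 172 CPM in Prox1-cKO (log2 fold change −1.91). WT replicate 3 stood away from the rest on the second principal component (9.87% of the variance), and the member counts without it are given beside the totals.

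Of the 33 members, 22 were lower and 3 higher in Prox1-cKO livers. Of all genes tested, 34.3% were called, 20.2% as lower and 14.1% as higher, or 40.8% and 4.88% with library totals alone. In the sterol arm, 14 of 19 genes were lower and 1 was higher, with a median log2 fold change of −0.99. In the fatty acid arm, 7 of 9 genes were lower and none was higher, with a median of −1.59, and the median over all genes tested was −0.02. Among the regulators, Srebf1 was lower and Scap and Insig2 were higher. The levels of 24 members did not overlap between the genotypes with Prox1-cKO lower, and those of 4 members did not overlap with Prox1-cKO higher, against 26.6% and 23.3% of all genes tested. Without WT replicate 3, 23 members were lower and 3 higher (22.6% and 17% of all genes tested). With library totals alone, 26 were lower and 2 higher. With a 2-fold minimum, 16 members were lower, 9 of them in the sterol arm and 6 in the fatty acid arm, against 14.1% of all genes tested. In these whole livers, fewer cells of a type and less RNA per cell cannot be told apart.

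**Figure D1:**
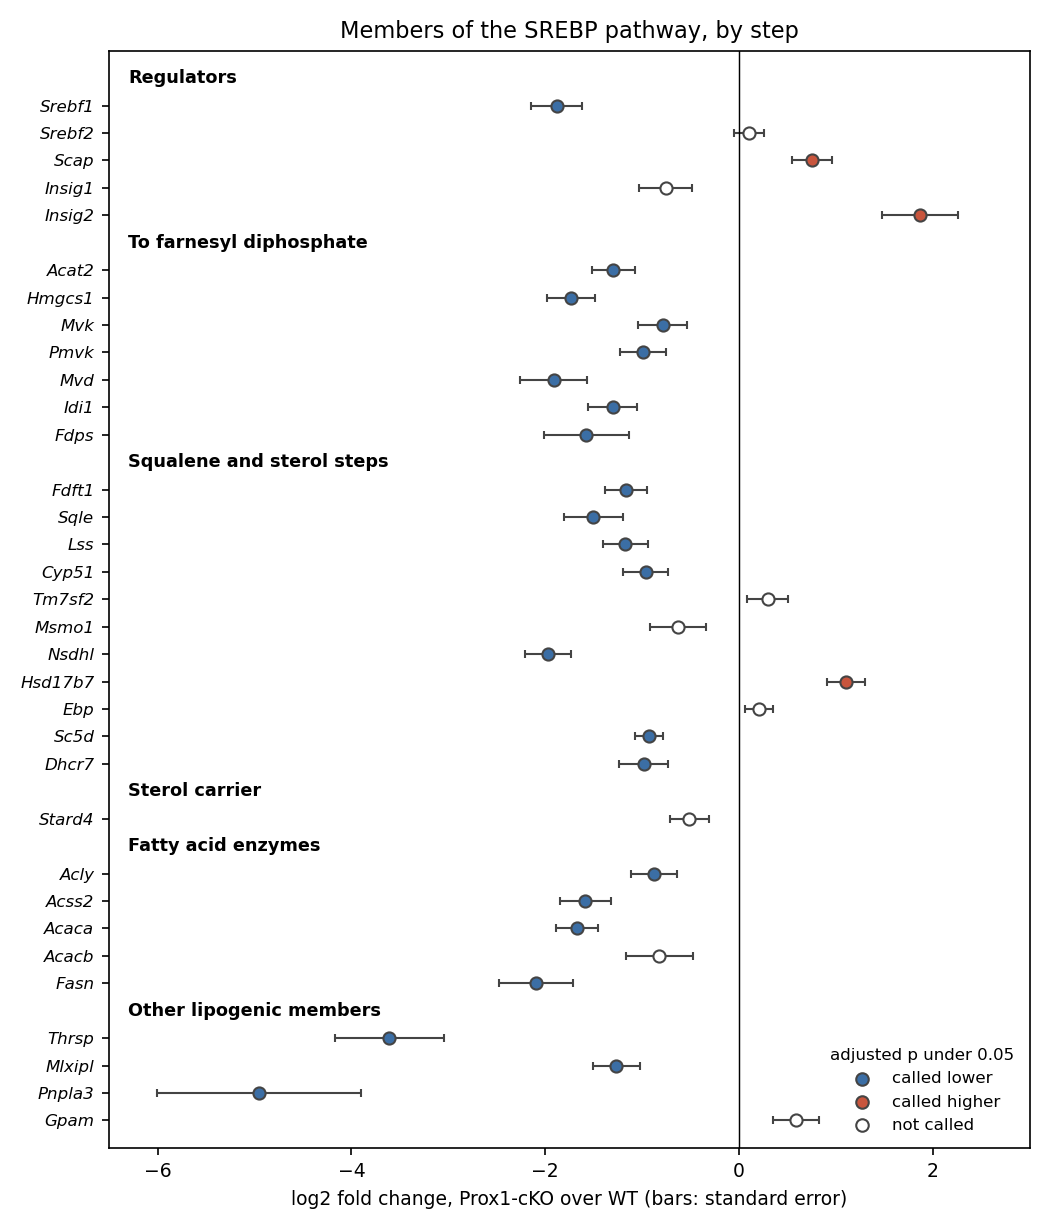
Log2 fold change of each of the 33 members, Prox1-cKO over WT (x axis, points with standard errors), by step of the pathway, with blue points called lower, red points called higher and white points not called (edgeR, adjusted p under 0.05). All 7 genes of the steps to farnesyl diphosphate lie left of 0, while Scap, Insig2 and Hsd17b7 are the called genes to its right.

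The pathway's regulators moved in different directions. Srebf1, which encodes SREBP1 (chromosome 11 from 60199089 to 60222581 of GRCm38), was 197, 141 and 121 CPM in WT and 56.5, 36.5 and 31.8 CPM in Prox1-cKO. It fell by 1.88 on the log2 scale (standard error 0.26, adjusted p = 0.00195), and its highest Prox1-cKO library lay below its lowest WT library. Srebf2, which encodes SREBP2 (chromosome 15 from 82147181 to 82205379), was 77.7, 56.5 and 76.4 CPM in WT and 84.0, 68.9 and 73.2 CPM in Prox1-cKO. These ranges overlapped, and its log2 fold change of 0.10, with a standard error of 0.16 (adjusted p = 0.648), turned to −0.31 with library totals alone and to −0.03 without WT replicate 2. The log2 ratio of Srebf1 to Srebf2 within a library, which hardly depends on the scaling between libraries, was 1.34, 1.31 and 0.66 in WT and −0.57, −0.91 and −1.19 in Prox1-cKO. It was lower by 1.99 in Prox1-cKO and of opposite sign in the 2 genotypes, at an exact two-sided permutation p of 0.1 (0.2 adjusted over the 4 ratios tested), which is the smallest that 3 against 3 libraries can give. Per kilobase of exon, Srebf1 stood at 27.2 ± 6.96 CPM and Srebf2 at 9.77 ± 1.65 CPM in WT (SD, n = 3), and at 7.38 ± 2.33 and 10.5 ± 1.08 CPM in Prox1-cKO.

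Scap, the sterol-sensing escort of SREBPs, was 58.3, 55.3 and 88.1 CPM in WT and 99.1, 107 and 133 CPM in Prox1-cKO, with no overlap. Its log2 fold change was 0.75 (standard error 0.21, adjusted p = 0.0262), and the call was lost without WT replicate 1 or 2, without Prox1-cKO replicate 2 or 3 (in that order, adjusted p = 0.0841, 0.0848, 0.0645 and 0.0815) and with library totals alone (0.154). Insig1 and Insig2 encode the retention proteins of the SCAP-SREBP complex. Insig2 rose from 107, 88.9 and 239 CPM in WT to 503, 406 and 681 CPM in Prox1-cKO, with a log2 fold change and standard error of 1.87 ± 0.39 (adjusted p = 0.00903). WT replicate 3 was the highest of the WT libraries, and every Prox1-cKO library lay above it. Insig1, itself a well-known target of SREBPs, was 384, 212 and 201 CPM in WT and 170.4, 176 and 126 CPM in Prox1-cKO. Its levels did not overlap, but WT replicate 1 stood well above the others and the log2 fold change of −0.75 (standard error 0.27) did not pass (adjusted p = 0.0649). It passed without WT replicate 3 (adjusted p = 0.0301), with no filter beyond 1 count (0.0269), with DESeq2 (0.0295) and with library totals alone (0.0112). The log2 ratio of Insig2 to Insig1 was −1.83, −1.25 and 0.25 in the WT libraries and 1.56, 1.21 and 2.43 in the Prox1-cKO libraries. This ratio was higher by 2.68 in Prox1-cKO with no overlap (exact permutation p = 0.1, 0.2 adjusted over the 4 ratios), or by 3.27 without WT replicate 3. Per kilobase of exon, Insig1 was 85.8 ± 33.2 CPM and Insig2 41.8 ± 23.5 CPM in WT (SD, n = 3), spreads that overlap, and 50.9 ± 8.82 and 153 ± 40.1 CPM in Prox1-cKO, which do not.

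**Figure D2:**
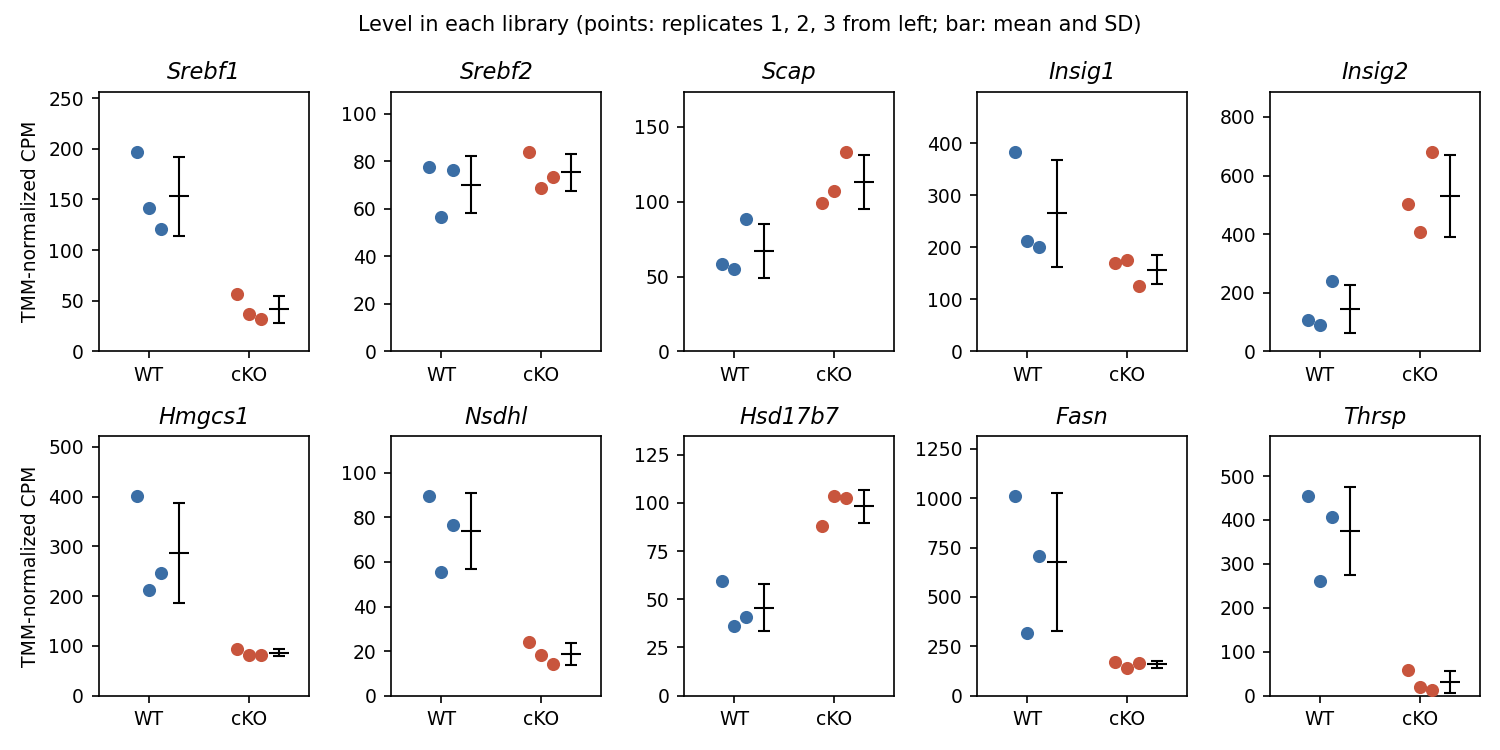
TMM-normalized CPM (y axes, starting at 0) of 10 members in each WT (blue) and Prox1-cKO (red) library, with the mean and SD of 3 libraries as bars. The points of Srebf1, Hmgcs1, Nsdhl, Fasn and Thrsp are lower in every Prox1-cKO library than in any WT library, those of Scap, Insig2 and Hsd17b7 are higher, and those of Srebf2 overlap.

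All 7 genes of the steps from acetyl-CoA to farnesyl diphosphate were lower in Prox1-cKO livers, with log2 fold changes of −0.79 to −1.91 and no overlap between the genotypes. Hmgcs1, the cytosolic HMG-CoA synthase (chromosome 13 from 119690379 to 119708260), was 401, 212 and 247 CPM in WT and 94.6, 82.4 and 81.7 CPM in Prox1-cKO. The Prox1-cKO libraries lay close together and 3.32-fold below WT (adjusted p = 0.00198). Acat2, the cytosolic thiolase that makes acetoacetyl-CoA, was 76.5, 43.5 and 68.1 CPM in WT and 30.0, 22.1 and 24.4 CPM in Prox1-cKO, 2.46-fold lower (adjusted p = 0.00406). Its near copy Acat3 was at 109 to 156 CPM in WT and 61.3 to 113 CPM in Prox1-cKO, and how reads were divided between them is not known.
Mevalonate is then phosphorylated and decarboxylated. Mvk, the mevalonate kinase, was 26.6, 16.5 and 16.4 CPM in WT and 14.3, 11.6 and 8.58 CPM in Prox1-cKO (log2 fold change −0.79, adjusted p = 0.0441). Pmvk, the phosphomevalonate kinase, was 39.5, 20.6 and 33.7 CPM in WT and 17.6, 13.6 and 16.1 CPM in Prox1-cKO (log2 fold change −0.99, adjusted p = 0.0155). Of these kinases, Mvk lost its call when WT replicate 1 or 2 or Prox1-cKO replicate 2 or 3 was left out (in that order, adjusted p = 0.141, 0.0552, 0.117 and 0.126), and Pmvk lost it without Prox1-cKO replicate 2 (0.0665). Mvd, which decarboxylates the product to isopentenyl diphosphate, was 43.3, 21.5 and 17.0 CPM in WT and 8.06, 5.95 and 7.75 CPM in Prox1-cKO. It had the largest log2 fold change of this stretch, −1.91 (standard error 0.35, adjusted p = 0.00506). Idi1, the isopentenyl diphosphate isomerase, was 43.2, 23.6 and 32.4 CPM in WT and 16.1, 14.0 and 10.1 CPM in Prox1-cKO, 2.46-fold lower (adjusted p = 0.00675). Fdps, the farnesyl diphosphate synthase, was 8.03, 3.49 and 4.17 CPM in WT and 1.25, 2.78 and 1.18 CPM in Prox1-cKO, with 20 to 51 reads per Prox1-cKO library. Its fall by 1.58 on the log2 scale passed (adjusted p = 0.0272). The call was lost without WT replicate 1 or without Prox1-cKO replicate 1 or 3 (adjusted p = 0.0843, 0.0903 and 0.0904). Of its exons, 1124 bp lie in a second gene model of the same strand that has no reads. How reads in such shared bases were counted is not given. Per kilobase of exon in WT, Fdps was the lowest of these 7 genes at 1.24 ± 0.581 CPM and Hmgcs1 the highest at 62.4 ± 21.8 CPM (SD, n = 3). The length used for Fdps includes the shared bases.

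From squalene to cholesterol, 7 of 11 genes were lower and 1 was higher. Fdft1, the squalene synthase, was 193, 110.5 and 161 CPM in WT and 79.5, 67.2 and 60.6 CPM in Prox1-cKO, 2.24-fold lower (adjusted p = 0.00574). Its exons share 774 bp with those of Ctsb on the other strand, a gene at 1078 to 1229 CPM in WT and 571.6 to 623.7 CPM in Prox1-cKO, and the strand of the counting is not given. Sqle, the squalene epoxidase and a controlled step of the pathway, was 125, 59.1 and 62.6 CPM in WT and 34.4, 28.9 and 23.9 CPM in Prox1-cKO, with WT replicate 1 above the other WT libraries. Its log2 fold change was −1.50 (standard error 0.30, adjusted p = 0.00771). Lss, which closes the sterol rings to give lanosterol, was 114, 59.6 and 73.1 CPM in WT and 38.7, 37.5 and 33.2 CPM in Prox1-cKO, 2.26-fold lower (adjusted p = 0.00730). Cyp51, the lanosterol demethylase, was 176, 95.5 and 126 CPM in WT and 78.0, 58.3 and 67.9 CPM in Prox1-cKO, 1.95-fold lower (adjusted p = 0.0153). Without Prox1-cKO replicate 2 or 3 this call was lost, at an adjusted p of 0.0682 or 0.0520.

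The steps that remove methyl groups from the sterol ring held both a gene that fell and one that rose. Nsdhl, the decarboxylating sterol dehydrogenase (chromosome X from 72918557 to 72958514), was 89.6, 55.4 and 76.6 CPM in WT and 23.9, 18.2 and 14.3 CPM in Prox1-cKO. It had the largest fall of the sterol arm, 3.93-fold (log2 fold change −1.97, standard error 0.24, adjusted p = 0.00104). Hsd17b7, the ketoreductase that follows Nsdhl and also acts on sex steroids (chromosome 1 from 169949535 to 169969241), was 59.5, 36.3 and 40.9 CPM in WT and 88.1, 103 and 103 CPM in Prox1-cKO. It was 2.15-fold higher (log2 fold change 1.11, standard error 0.19, adjusted p = 0.00453), was the only member of either arm called higher, and kept the call with library totals alone (0.70, adjusted p = 0.0235 from edgeR). Msmo1, the sterol methyl oxidase that precedes both, was 161, 91.2 and 121 CPM in WT and 112, 74.6 and 55.4 CPM in Prox1-cKO. These levels overlapped and the log2 fold change of −0.63 did not pass (adjusted p = 0.130), though it passed without Prox1-cKO replicate 1 (0.0495) and with library totals alone (0.0173).

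Of the remaining sterol enzymes, Sc5d, the sterol desaturase, was 411, 398 and 472 CPM in WT and 234, 226 and 213 CPM in Prox1-cKO, and had the smallest spread relative to its mean of all members in WT. It was 1.90-fold lower (adjusted p = 0.00297). Dhcr7, the reductase that completes cholesterol, was 129, 66.8 and 88.1 CPM in WT and 58.1, 46.3 and 39.2 CPM in Prox1-cKO, 1.98-fold lower (adjusted p = 0.0201), and lost the call when Prox1-cKO replicate 2 or 3 was left out, at an adjusted p of 0.0735 or 0.0723. Tm7sf2, a sterol reductase, and Ebp, the sterol isomerase, had log2 fold changes of 0.29 (standard error 0.21, adjusted p = 0.312) and 0.21 (standard error 0.15, adjusted p = 0.305), which turned to −0.11 and −0.20 with library totals alone. Tm7sf2 was 67.2 ± 16.6 CPM in WT and 82.4 ± 15.6 CPM in Prox1-cKO, and Ebp 155 ± 21.1 and 179 ± 8.49 CPM (SD, n = 3), with overlap in both genes. Exons of Tm7sf2 share 532 bp with Vps51 on the same strand. Stard4, which carries cholesterol between membranes, was 83.9 ± 10.8 CPM in WT and 58.9 ± 15.2 CPM in Prox1-cKO, and its log2 fold change of −0.51 did not pass (adjusted p = 0.0844), though it passed without Prox1-cKO replicate 1 (0.0490) and with library totals alone (0.00732), and in 1 other fit. Per kilobase of exon in WT, Sc5d (87.7 ± 8.11 CPM) and Ebp (67.0 ± 9.12 CPM) were the highest of the squalene and sterol steps, with spreads that do not overlap.

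**Figure D3:**
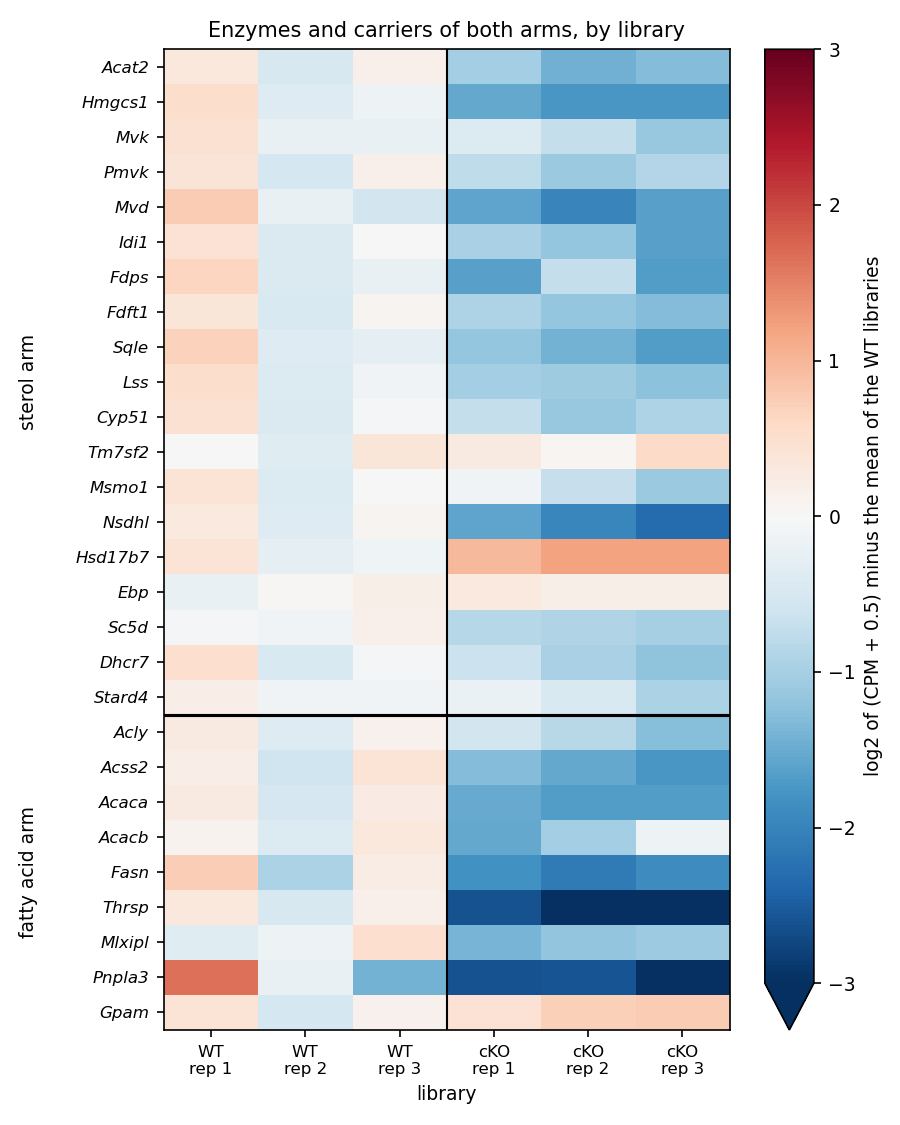
Colours give the log2 of CPM plus 0.5 in each library (columns) minus the mean of the 3 WT libraries, for the 19 genes of the sterol arm and the 9 of the fatty acid arm (top to bottom), with values below −3 drawn as −3. Most genes are blue in all 3 Prox1-cKO columns, Hsd17b7 and Gpam are red and Tm7sf2 and Ebp pale there, and WT replicate 1 is the reddest WT column in the sterol arm.

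In the fatty acid arm, 4 of the 5 enzymes were lower. Fasn, the fatty acid synthase (chromosome 11 from 120805846 to 120824547), was 1010.1, 316 and 705 CPM in WT and 171, 139 and 164 CPM in Prox1-cKO. WT libraries differed among themselves by more than the lowest of them differed from Prox1-cKO, yet did not overlap with Prox1-cKO, and Fasn was 4.29-fold lower (log2 fold change −2.10, standard error 0.38, adjusted p = 0.00522). Acaca, the cytosolic acetyl-CoA carboxylase, was 180.5, 105 and 179 CPM in WT and 52.3, 46.9 and 46.6 CPM in Prox1-cKO, 3.19-fold lower (adjusted p = 0.00141). Acacb, the mitochondrial carboxylase whose product restrains fatty acid oxidation, was 190.5, 135 and 221 CPM in WT and 60.9, 88.3 and 159.6 CPM in Prox1-cKO. Prox1-cKO replicate 3 lay within the WT range, and the log2 fold change of −0.82 (standard error 0.35) did not pass (adjusted p = 0.1004), whereas without that library it was −1.28 and passed (0.0202), as it did with no filter beyond 1 count (0.0355) and with library totals alone (0.0199). The log2 ratio of Acacb to Acaca was 0.08, 0.35 and 0.31 in WT and 0.22, 0.91 and 1.77 in Prox1-cKO. These values overlapped, and the difference of 0.72 was larger than the SD in WT (0.15) but not that in Prox1-cKO (0.78). The exact permutation p was 0.3 (0.4 adjusted over the 4 ratios). Acly and Acss2 supply acetyl-CoA to both arms, from citrate and from acetate. Acly was 301, 189.8 and 274 CPM in WT and 171, 141 and 103 CPM in Prox1-cKO, 1.84-fold lower (adjusted p = 0.0248), and lost the call when WT replicate 1 or Prox1-cKO replicate 2 or 3 was left out (in that order, adjusted p = 0.0763, 0.0812 and 0.0734). Acss2 was 243, 140.1 and 283 CPM in WT and 85.6, 73.5 and 62.7 CPM in Prox1-cKO, 3.01-fold lower (adjusted p = 0.00361), and its exons overlap those of 3 genes on the other strand.

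The 2 largest falls among the members were in lipogenic genes outside these enzymes, Thrsp and Pnpla3. Thrsp, a thyroid hormone-responsive gene whose nuclear product promotes lipogenesis, was 454, 262 and 406 CPM in WT and 58.9, 20.4 and 12.7 CPM in Prox1-cKO. It was 12.2-fold lower (log2 fold change −3.61, standard error 0.56, adjusted p = 0.00279), and without Prox1-cKO replicate 1, the highest of that genotype, the log2 fold change was −4.49. Pnpla3, a lipid droplet hydrolase induced by SREBP1, was 14.0, 3.45 and 1.22 CPM in WT and 0.250, 0.273 and 0.0592 CPM in Prox1-cKO, where it had 4, 5 and 1 reads. WT libraries spread from 24 to 317 reads, and the log2 fold change of −4.95, with a standard error of 1.05 (adjusted p = 0.00967), was −3.54 without WT replicate 1, and −2.15 and −3.88 with limma on CPM plus 1 and plus 0.1. Mlxipl was 389, 449.7 and 714 CPM in WT and 189, 221 and 236 CPM in Prox1-cKO, 2.40-fold lower (adjusted p = 0.00695). Gpam, which puts the first acyl chain on glycerol phosphate for triglyceride synthesis, was 169.9, 89.1 and 141 CPM in WT and 174, 210.1 and 218 CPM in Prox1-cKO. All Prox1-cKO values lay above those of WT, and its log2 fold change of 0.59 (standard error 0.24) did not pass (adjusted p = 0.0873), though it passed without WT replicate 1 (0.0449) and with no filter beyond 1 count (0.0451).

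To compare the arms library by library, the log2 of CPM plus 0.5 of each gene was set against its WT mean and averaged over each arm. The sterol arm stood at 0.38, −0.34 and −0.04 in WT and at −0.71, −0.91 and −1.04 in Prox1-cKO, and the fatty acid arm at 0.39, −0.47 and 0.08 in WT and −1.44, −1.59 and −1.66 in Prox1-cKO. In each Prox1-cKO library the fatty acid arm was the lower of the arms, by 0.72, 0.69 and 0.62. In WT the arms differed by 0.02, −0.13 and 0.11 (fatty acid minus sterol). Since each gene was set against its WT mean, WT differences centre on equal arms by construction and show only the spread among WT libraries. For the 5 enzymes alone, the fatty acid arm minus the sterol arm was −0.63, −0.52 and −0.31 in Prox1-cKO and −0.07, −0.23 and 0.30 in WT. The distance between the arms was thus smaller in each Prox1-cKO library without Thrsp, Mlxipl, Pnpla3 and Gpam. It is given as a description, since the members were chosen with results of these data known. Between the leading enzymes of the arms, the log2 ratio of Fasn to Hmgcs1 was 1.33, 0.57 and 1.51 in WT and 0.87 on average (SD 0.12, n = 3) in Prox1-cKO. The difference of −0.27 was smaller in size than the SD of 0.50 in WT (exact permutation p = 0.4).
Within a genotype, the same library was the highest or the lowest for many members, most clearly in the sterol arm. WT replicate 1 was the highest WT library in 16 of the 19 sterol genes and in 6 of the 9 genes of the fatty acid arm, and WT replicate 2 the lowest in 16 and 7. Among Prox1-cKO libraries, replicate 1 was the highest in 16 of the 19 sterol genes and replicate 3 the lowest in 12. In the fatty acid arm, Prox1-cKO replicate 1 was the highest in 5 of 9 genes and the lowest in 3. Prox1-cKO replicate 3 was the highest there in 3 and the lowest in 5. The genes share libraries, so that these counts describe the 6 livers and are no test. How often each library was the highest or lowest over all genes was not counted. Without WT replicate 1, 12 genes of the sterol arm and 6 of the fatty acid arm were lower, and Gpam was called higher (14.5% of all genes tested were lower and 8.35% higher in that fit). At an unadjusted p under 0.05, Gpam was again the only higher gene of the fatty acid arm, against 19.8% of all genes tested.

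**Figure D4:**
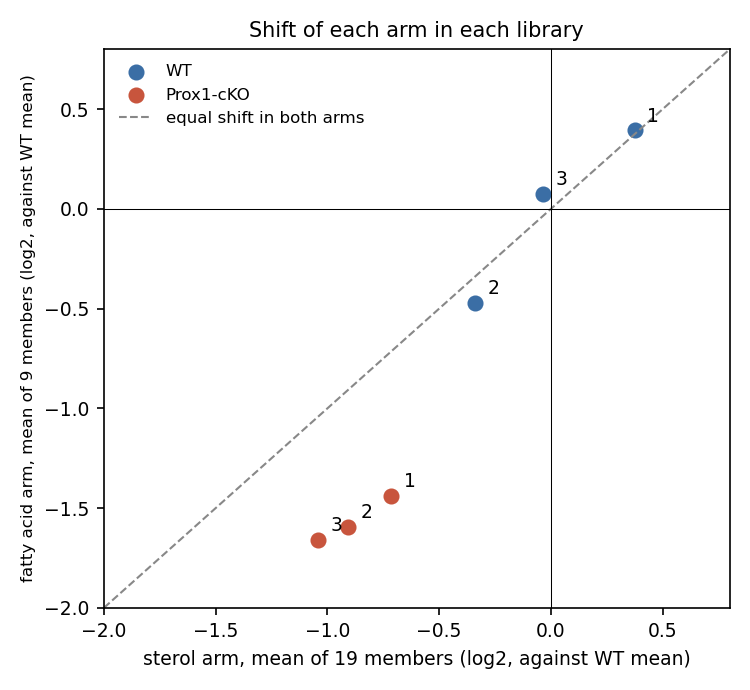
Mean log2 shift of the sterol arm (x axis, 19 genes) and of the fatty acid arm (y axis, 9 genes) in each library against the mean of WT, with the replicate number beside each point and a dashed line of equal shift. WT libraries lie near the line, and their mean lies on it by construction. The 3 Prox1-cKO libraries lie below the line, with the fatty acid arm at −1.44 to −1.66 and the sterol arm at −0.71 to −1.04.

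Of 14 tested genes of sterol synthesis and SREBP2 control outside the members, 5 were lower and 2 higher, with a median log2 fold change of −0.16, beside 20.2% lower, 14.1% higher and a median of −0.02 over all genes tested. The higher genes were Por, the electron donor of microsomal cytochrome P450 enzymes (299 ± 104 CPM in WT, 1053 ± 88.1 CPM in Prox1-cKO, SD, n = 3, log2 fold change 1.81), and Erg28, which in yeast scaffolds the enzymes that remove methyl groups from sterols (29.6 ± 2.38 and 49.6 ± 5.75 CPM, log2 fold change 0.75). Cyb5r3, which passes electrons to sterol-modifying oxidases and desaturases through cytochrome b5, had a log2 fold change of −1.34. The adjusted p of these genes was 0.00202, 0.00424 and 0.00669 from edgeR. Of 19 other lipogenic genes, 5 were lower and 5 higher, with a median of 0.11, beside the same shares over all genes. Lpin1, the phosphatidate phosphatase of triglyceride synthesis, rose by 2.29 on the log2 scale, while Pklr, the liver pyruvate kinase, and Mid1ip1, a relative of Thrsp, had log2 fold changes of −1.92 and −1.25 (adjusted p = 0.00115, 0.00217 and 0.00235). Genes of fatty acid desaturation and elongation in this list, named here after their values were seen, included Scd1, Scd2 and Elovl6, with log2 fold changes of −1.69, −4.07 and −1.79 (adjusted p = 0.00856, 0.00782 and 0.00549), and Elovl5 and Fads2, with 1.56 and 1.03 (0.00871 and 0.0112). Fads1, the desaturase that acts beside Fads2 on polyunsaturated chains, had a log2 fold change of 0.13 and did not pass (adjusted p = 0.622).

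Markers of liver cell types moved in the same libraries, in which 20.2% of all genes tested were lower and 14.1% higher. Of 11 tested hepatocyte genes, 7 were higher and none lower, with a summed level of 73126 to 85813 CPM in WT and 111692 to 135671 CPM in Prox1-cKO. Most of this sum was Alb, the albumin gene, at 57607 ± 8808 CPM in WT and 81508 ± 10943 CPM in Prox1-cKO (SD, n = 3), which did not pass (adjusted p = 0.254). Lower genes were 11 of 12 for dividing cells (76.1 to 197 CPM in WT, 22.4 to 30.2 CPM in Prox1-cKO), 7 of 10 for stellate cells and fibroblasts (526 to 628 and 316 to 379.9 CPM), 5 of 7 for bile duct (705 to 1111 and 306 to 414 CPM), 9 of 10 for macrophages (579 to 1255 and 458 to 624 CPM) and 1 of 8 for sinusoidal endothelium (474 to 636 and 393 to 603 CPM), and none of these 5 lists had a higher gene. Of 3 tested adipocyte markers, 1 was higher and 1 lower (24.6 to 77.1 CPM in WT and 28.4 to 152.6 CPM in Prox1-cKO), and the defining markers Adipoq and Plin1 were at most 0.0847 CPM on average in either genotype. The part of the other cell types in the levels of the members was not tested.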

How the data were processed

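Raw counts of reads in each gene were deposited by the authors, whose processing notes list HISAT2 2.1.0 for alignment and HTSeq. The notes also name DESeq and the human build GRCh38, although 29641 of 29667 identifiers are mouse genes of GENCODE M21 (GRCm38), from which coordinates and exon lengths were taken. The sources used here do not state the annotation release, strand or filters. A second deposited table, named FPKM, was not used here. The analysis ran in R 4.3.3 and edgeR 4.0.16, with filterByExpr by genotype, TMM scaling and a quasi-likelihood test of genotype without covariates, adjusted by Benjamini and Hochberg over all genes tested. Standard errors are the log2 fold change over the root of F. The members and all gene lists were chosen with earlier results of these data known. All members are named, with every library's value for called members, and up to 3 genes of each other list by lowest adjusted p. Alternatives were RLE scaling, library totals, no filter, at least 10 counts in every library, a replicate block, each library left out, DESeq2 1.42.0, limma 3.58.1 on log2 of CPM plus 1 or 0.1, a 2-fold minimum and unadjusted p. Replicates differed beyond sampling noise. The test was checked on simulated counts in which 200 of the 14843 genes were changed. It called 2.99% of genes changed 1.5-fold, 49.3% of those changed 2-fold and 97.0% of those changed 4-fold. In the data 5086 genes were called, and with so many the adjusted p is less strict than with 200 changed genes. These rates therefore do not carry over directly to the data. A gene that did not pass may still differ. Figures were drawn with matplotlib 3.10.9.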

Additional observations from a re-analysis of the deposited data

How the results depend on the processing

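Of the 25 called members, 18 kept their call in each of the 14 other fits that tested them and none changed direction. Leaving out a library gave 17 to 23 members lower and 2 to 3 higher, with 10 to 15 sterol genes lower. In the fatty acid arm, 6 to 7 genes were then lower and 0 to 1 higher. Of the 15052 to 15453 genes tested in those fits, 1999 to 3468 were lower and 1201 to 2604 higher. The higher gene was also 1 with no filter beyond 1 count and at an unadjusted p under 0.05. With a 2-fold minimum, 9 sterol genes were lower. For the 5 fatty acid enzymes alone, without a fold minimum, 4 were lower. Library totals alone moved the medians to −1.40 in the sterol arm and −1.99 in the fatty acid arm, and turned Srebf2 to −0.31, Tm7sf2 to −0.11 and Ebp to −0.20, none of them called. With each library left out, Srebf2 ran from −0.028 (without WT replicate 2) to 0.19. Over all genes, the main test called 2087 genes higher and 2999 lower, library totals 725 and 6060, and the fits without WT replicate 1, WT replicate 2 and Prox1-cKO replicate 2 called 1260, 1301 and 1201 higher, the last with 1999 lower. The labels do not say that replicate numbers pair the mice. Same-numbered libraries correlated at 0.15, 0.06 and 0.15 in their deviations from the genotype means, and WT replicate 2 correlated best with Prox1-cKO replicate 1. With the replicate block, 26 members were lower and 3 higher, against 2988 and 2029 of the 14843 genes tested. Insig1, Msmo1, Stard4 and Acacb passed in that fit (log2 fold changes of −0.70, −0.64, −0.54 and −0.90), with no other change of a member's call. Pnpla3 could not be tested with at least 10 counts in every library. Its 10 reads in Prox1-cKO limit the precision of its fold.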

Other observations

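Of 10 tested genes of the sterol receptor LXR and its targets, 2 were lower and 2 higher, with a median log2 fold change of −0.22, beside 20.2% lower, 14.1% higher and a median of −0.02 over all genes tested. Rxra, the partner receptor of LXR, rose by 0.72 on the log2 scale, while Arl4c and the sterol exporter Abcg1 had log2 fold changes of −1.43 and −1.10 (adjusted p = 0.0119, 0.00262 and 0.0136 from edgeR). Nr1h3, which encodes LXR alpha and was named after its values were seen, was 117 ± 3.58 CPM in WT and 109 ± 18.3 CPM in Prox1-cKO (SD, n = 3, log2 fold change −0.09, adjusted p = 0.656).

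Of 11 genes of sterol esterification and trafficking, 3 were lower and 4 higher, with a median of 0.02, beside the same shares over all genes. Gramd1b, which moves cholesterol from the plasma membrane to the endoplasmic reticulum, was 126, 74.4 and 77.4 CPM in WT and 4.62, 3.88 and 2.78 CPM in Prox1-cKO, with a log2 fold change and standard error of −4.62 ± 0.29 (adjusted p = 6.16e-05). Its relative Gramd1c, named after its values were seen, was 18.6, 20.7 and 24.5 CPM in WT and 44.2, 39.3 and 28.6 CPM in Prox1-cKO (log2 fold change 0.81, adjusted p = 0.0125). Neither gene overlapped between the genotypes, and they moved in opposite directions. Lcat, which esterifies cholesterol in plasma, rose from 239.6 ± 39.2 to 551 ± 2.31 CPM (SD, n = 3, adjusted p = 0.00192), and Npc2, a lysosomal cholesterol carrier, fell by 0.86 on the log2 scale (adjusted p = 0.00819).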
